A study of Mus musculus with 235 samples.

Results

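Mt1, Mt2 and Mt3 were followed through 235 libraries of mouse brain. They were picked by symbol from a table of raw counts and are 3 of its 27998 genes. The libraries came from 30 male C57Bl/6 mice aged 3 months, with no engineered allele named in the labels. Those of the DEX arm (15 mice) were injected intraperitoneally with 10 mg per kg of the synthetic glucocorticoid dexamethasone, and those of the CNTRL arm (15 mice) with saline vehicle. Brains were perfused 4 h later and 8 regions were punched from coronal sections: dCA1, vCA1, dDG, vDG, AMY, PVN, PFC and CER, as the labels call them. Each region and arm gave 13 to 15 libraries, each from a different mouse, and 26 of the 30 mice gave a library in all 8 regions. Messenger RNA was read at its 3′ end, so each transcript is sampled at 1 end whatever its length.

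Metallothioneins are small, cysteine-rich proteins that hold zinc and copper ions in thiolate clusters, buffer free metal and take up reactive oxygen species. Mt1 and Mt2 are made in most tissues and, in brain, mainly in astrocytes, and their transcription is raised by metals, through the zinc-sensing factor MTF1, and by glucocorticoids. Mt3, also called growth inhibitory factor, is found mostly in the nervous system and is known for responding little to the metals and hormones that induce the other two. Mt4 is a metallothionein of stratified epithelia.

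The 4 genes lie head to tail on the plus strand of chromosome 8 within 43122 bases, and the count table holds no other gene in that span. In the mm10 coordinates of the table, Mt3 (ENSMUSG00000031760) runs from 94152607 to 94154148, Mt2 (ENSMUSG00000031762) from 94172618 to 94173567 and Mt1 (ENSMUSG00000031765) from 94179089 to 94180325. Each has 3 exons, with 538, 556 and 540 exon bases in that order. Their exons overlap no exon of another gene. No stretch of 50 bases in their GENCODE M21 transcripts recurs in a transcript of another gene. Mt4 (94137204 to 94139031) drew 3 counts in all, in 2 libraries, and is not described further.

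The promoters are shown because 2 of these neighbours passed the test of a response to the hormone and 1 did not. RefSeq promoter windows (GRCm38.p6, plus strand, 250 bases before to 50 after the annotated start) were found for all 3 members. Capitals mark the core of the metal response element, the sequence bound by MTF1, searched as TGCACNC or TGCGCNC on both strands.
Mt1, chr8:94178839-94179138: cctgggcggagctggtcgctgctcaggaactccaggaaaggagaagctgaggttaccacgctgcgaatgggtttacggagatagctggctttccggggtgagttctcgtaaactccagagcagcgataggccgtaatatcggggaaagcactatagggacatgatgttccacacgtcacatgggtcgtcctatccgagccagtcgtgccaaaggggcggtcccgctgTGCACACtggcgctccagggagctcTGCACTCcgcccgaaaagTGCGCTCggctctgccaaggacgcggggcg
Mt2, chr8:94172368-94172667: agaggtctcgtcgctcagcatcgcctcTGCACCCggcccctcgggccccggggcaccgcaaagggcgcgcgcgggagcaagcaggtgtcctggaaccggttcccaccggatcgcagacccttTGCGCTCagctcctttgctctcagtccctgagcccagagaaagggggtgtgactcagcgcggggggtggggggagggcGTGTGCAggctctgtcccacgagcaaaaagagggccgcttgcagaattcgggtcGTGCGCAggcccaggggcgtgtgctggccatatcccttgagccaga
Mt3, chr8:94152357-94152656: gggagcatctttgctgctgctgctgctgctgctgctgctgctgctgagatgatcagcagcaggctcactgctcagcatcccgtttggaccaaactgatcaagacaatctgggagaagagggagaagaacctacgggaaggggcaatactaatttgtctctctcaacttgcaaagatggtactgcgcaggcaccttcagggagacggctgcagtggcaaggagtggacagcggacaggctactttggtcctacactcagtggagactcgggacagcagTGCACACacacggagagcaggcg

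Mt1 held 3 matches, Mt2 held 4 and Mt3 held 1. Among 32851 RefSeq promoter windows of the same length, 12.6% held TGCACNC, 15.4% held TGCGCNC, 25.7% held at least 1 match of either kind, 1.97% at least 3 and 0.518% at least 4. A glucocorticoid response element written as the palindrome AGAACANNNTGTTCT was in none of the 3 windows and in 0.00913% of all windows. Its half-site AGAACA was also in none of the 3, against 19.0% of all windows. The Mt2 window held 1 match, on the plus strand, to the antioxidant element core TGACNNNGC, which 12.4% of windows hold. A match is a string of letters and not a site, and the absence of one says nothing about other stretches of the locus. As background, the glucocorticoid response elements of mouse Mt1 and Mt2 have been mapped upstream of Mt2, outside a window of this size.

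GENCODE M21 places other starts inside these genes, at 122 and 152 bases past the window's start site in Mt1, 46 and 242 in Mt2 and 139 in Mt3. The part of the first exon between the end of the window and the start codon was therefore searched too. The TATA box core TATAAA, read on the gene's own strand, occurred once in each: at 94179210 in the 172 bases of Mt1, at 94172753 in the 180 bases of Mt2 and at 94152713 in the 143 bases of Mt3. In the same stretch of all protein-coding transcripts long enough, it occurred in 2.20%, 2.22% and 1.81%. In these stretches Mt1 held 2 further metal response element cores, Mt2 held 3 and Mt3 held 2, in each gene before the TATAAA. Such a core was found in 14.9%, 17.3% and 12.9% of the corresponding stretches.

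The libraries held 268538 to 1451422 counts (median 742957). Mt1 drew 335 to 1986 counts per library, Mt2 115 to 1490 and Mt3 18 to 288. RNA integrity numbers (RIN) ran from 2.2 to 9.0, with 24 libraries under 5. Region markers did not follow the labels throughout. Gabra6, a gene of cerebellar granule cells, was at 0 in all 15 CER vehicle libraries. It stood at 10 counts per 1000000 (CPM) or more in 7 vDG libraries and 1 library each of vCA1, CER and PFC. Prox1, which marks dentate granule cells, averaged 514 CPM in dCA1 vehicle libraries and 455 CPM in dDG. The responses to dexamethasone were therefore also computed without those Gabra6 libraries and, in the 4 hippocampal regions, with the level of 6 further dentate genes in the model, and the other results were not. The summed level of those 6 in vCA1 had a median of 98.6 CPM in vehicle and 193 CPM after DEX. The punches hold many cell types, so fewer cells of a type and less RNA per cell cannot be told apart.

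In vehicle mice all 3 genes were highest in dCA1 and lowest in PVN, and the spread over regions was narrow. Levels are given in CPM on 1 scale for all 235 libraries. Mt1 averaged 1408 ± 419.9 CPM (SD, n = 15) in dCA1 and 1018 ± 114 (SD, n = 14) in PVN, a ratio of 1.38. Mt2 averaged 716 ± 215 CPM (SD, n = 15) and 489.7 ± 73.4 (SD, n = 14) in the same regions, a ratio of 1.46. For Mt3 the means were 158 ± 66.3 CPM (SD, n = 15) and 93.6 ± 24.0 (SD, n = 14), a ratio of 1.69. From high to low, Mt1 followed dCA1, CER, vDG, vCA1, dDG, AMY, PFC, PVN. The order for Mt2 was dCA1, vCA1, vDG, dDG, CER, PFC, AMY, PVN, and for Mt3 it was dCA1, vCA1, dDG, CER, PFC, vDG, AMY, PVN.

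The level differed among the 8 regions for each member, in an edgeR quasi-likelihood fit of the vehicle libraries with the mouse as a block. The Benjamini-Hochberg adjusted p was 3.78e-05 for Mt1, 3.27e-07 for Mt2 and 0.000785 for Mt3. In that fit 73.3% of 10451 genes passed, so a difference among regions was the usual outcome. Of the 28 pairs of regions, 11 differed for Mt1, 14 for Mt2 and 6 for Mt3, against 31.7% of such tests over all genes. No neighbours in the 3 orders differed (0 of 7 for each gene, smallest adjusted p 0.153). PVN and dCA1 were separated by 0.44 ± 0.093 (SE) in Mt1, 0.52 ± 0.10 in Mt2 and 0.70 ± 0.15 in Mt3 on the log2 scale. The summed level of 10 astrocyte markers had a median of 8013 CPM in dCA1, 8412 CPM in vCA1 and 6236 CPM in PVN vehicle libraries. Its ranges in dCA1 and PVN overlapped (from 6234 CPM up in dCA1, up to 7559 CPM in PVN). Neither its difference between regions nor its part in the order was tested.

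At 4 h after dexamethasone, Mt2 was higher in all 8 regions, by 1.49-fold in PFC to 2.23-fold in PVN. Mt1 was higher in all 8 regions too, by 1.28-fold in PFC to 1.62-fold in PVN. Mt3 passed the test in 0 of 8. Among genes tested in a region, the share that rose past an adjusted p of 0.05 was 2.57% in dCA1, 3.41% in vCA1, 2.33% in dDG, 2.64% in vDG, 3.54% in AMY, 3.57% in PVN, 3.86% in PFC and 3.9% in CER. Of the 7924 genes tested in every region, 70 rose in all 8 (0.883%), Mt1 and Mt2 among them. The regions come from the same mice, so these 8 tests are not independent.

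**Figure D1:**
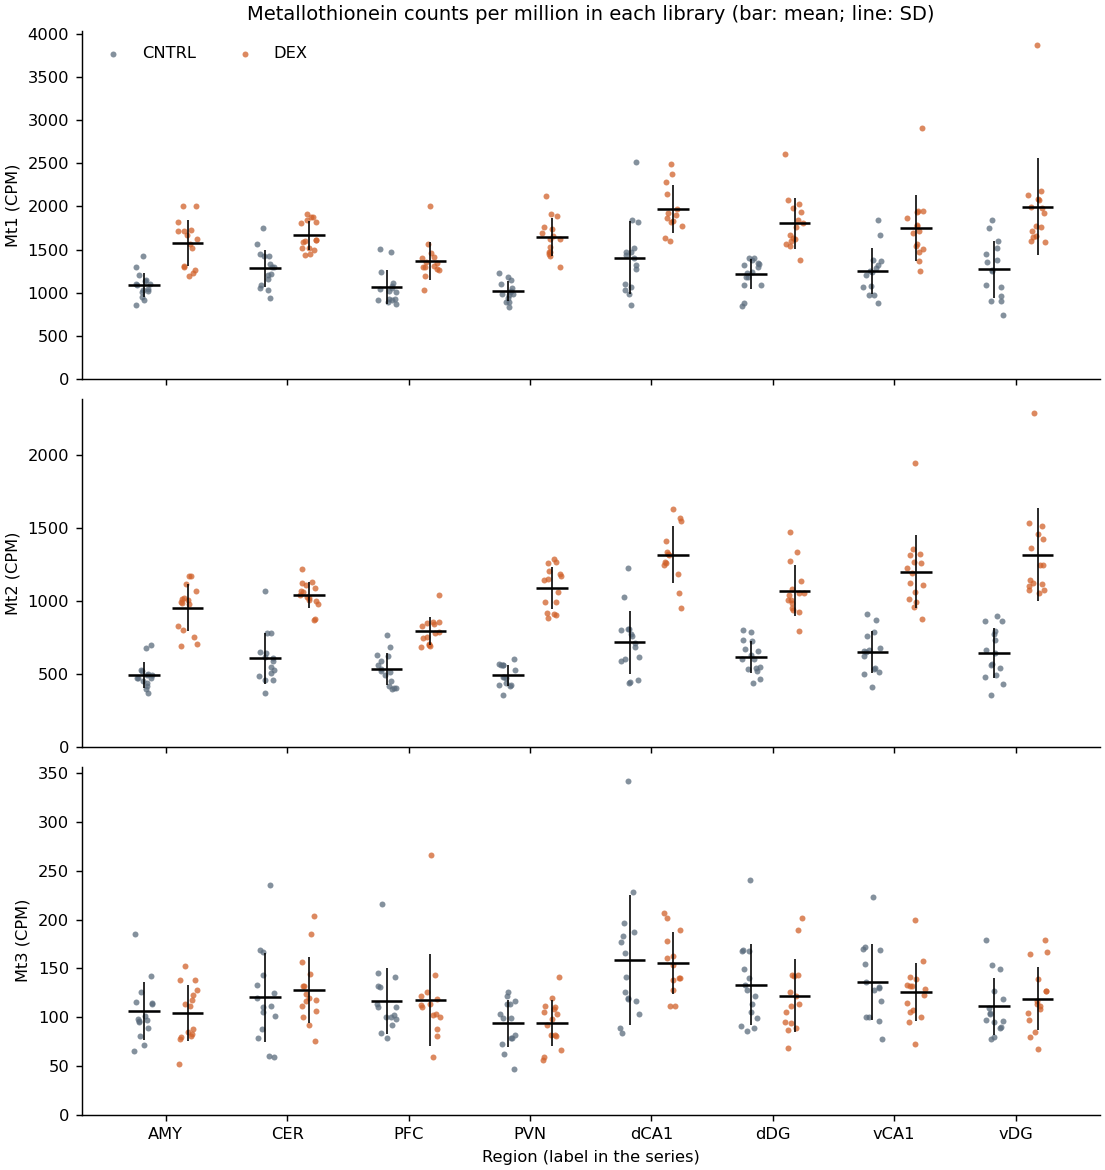
CPM of Mt1, Mt2 and Mt3 in each of 235 libraries, by region, with CNTRL in grey and DEX in orange; bars are means and lines span 1 SD on each side. Mt1 and Mt2 sit higher in DEX in every region, with DEX means up to 1998 CPM for Mt1 and 1317 CPM for Mt2, while the Mt3 groups overlap throughout between 46.8 and 341.8 CPM.

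Mt2, which codes for metallothionein-2, showed the clearest separation of the arms. In PVN the vehicle libraries held 355, 476 and 599 CPM (lowest, median, highest) and the DEX libraries 884, 1144 and 1285. In vDG they held 358, 641 and 896 CPM against 1055, 1245 and 2285. In these 2 regions no DEX library reached down to the highest vehicle library, and the log2 fold changes were 1.16 ± 0.079 and 1.04 ± 0.13 (SE). AMY ran from 366 through 474 to 696 CPM in vehicle and from 689 through 991 to 1172 CPM after DEX. In vCA1 the values were 413, 656 and 907 CPM against 874, 1193 and 1943, and in dDG 441, 603 and 798 CPM against 791, 1040.4 and 1470.3. In AMY, vCA1 and dDG, 14 of 15 DEX libraries lay above the highest vehicle library. The log2 fold changes there were 0.95 ± 0.090, 0.89 ± 0.11 and 0.79 ± 0.092 (SE).

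The arms overlapped more in the other 3 regions. In dCA1 Mt2 stood at 438, 709 and 1228 CPM in vehicle and 954, 1313 and 1632 CPM after DEX, and 10 of 13 DEX libraries cleared the highest vehicle library. In CER it stood at 366, 588 and 1066 CPM against 870.3, 1037 and 1218, and 5 of 15 did so, because 1 vehicle library reached 1066 CPM. PFC had the smallest rise, from 395, 520.3 and 768 CPM to 682, 785 and 1043 CPM, and 8 of 14 did so. The log2 fold changes were 0.88 ± 0.12, 0.78 ± 0.099 and 0.57 ± 0.084 (SE). Over the 8 regions the largest edgeR adjusted p for Mt2 was 2.63e-06. In all, 95 of 117 DEX libraries lay above the highest vehicle library of their region, and 117 of 117 above the vehicle median.

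Mt1, which codes for metallothionein-1, rose by less in fold and overlapped more. In CPM its mean rose by 305 in PFC to 725 in vDG, against 262 to 673 in the same regions for Mt2, and by more than Mt2 in 5 of 8 regions. PVN again separated the arms fully, at 837, 1002 and 1233 CPM in vehicle and 1295, 1628 and 2124 CPM after DEX (log2 fold change 0.70 ± 0.071, SE). In vDG the values were 745, 1267 and 1839.7 CPM against 1584, 1927 and 3873, and the log2 fold change was 0.66 ± 0.13 (SE). The DEX library at 3873 CPM in vDG had a RIN of 4.4 and 319008 counts, and without it the log2 fold change was 0.55 (adjusted p 0.000843). In dDG Mt1 stood at 846, 1236 and 1407 CPM against 1385, 1759.7 and 2602, and 14 of 15 DEX libraries cleared the highest vehicle library. AMY held 864, 1093 and 1424 CPM against 1194, 1620.5 and 2009 CPM, with 10 of 15 clear. The log2 fold changes in dDG and AMY were 0.56 ± 0.087 and 0.53 ± 0.081 (SE).

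In the remaining 4 regions Mt1 rose against a wide vehicle spread. In dCA1 the vehicle libraries ran from 856 through 1404 to 2515 CPM and the DEX libraries from 1601 through 1903 to 2494 CPM. No DEX library there exceeded the highest vehicle library, yet 13 of 13 exceeded the vehicle median. That count rests on 1 vehicle library, with a RIN of 4.2 and 297943 counts: the next highest held 1844 CPM, which 8 of 13 DEX libraries exceeded, and without it the log2 fold change was 0.58 (edgeR adjusted p 7.28e-05). In vCA1 the values were 877, 1244 and 1841 CPM against 1258, 1712 and 2912. In CER they were 935, 1294 and 1751 CPM against 1441, 1610.2 and 1916. PFC held 876, 1024 and 1502 CPM against 1030.3, 1327 and 1999.8. The log2 fold changes were 0.48 ± 0.12 in dCA1, 0.48 ± 0.11 in vCA1, 0.38 ± 0.078 in CER and 0.36 ± 0.082 in PFC (SE), and the largest edgeR adjusted p for Mt1 was 0.00945, in dCA1. Over all regions 60 of 117 DEX libraries lay above the highest vehicle library and 117 of 117 above the vehicle median.

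Mt3 values lay in the same range in both arms. In PVN they were 46.8, 99.1 and 125 CPM in vehicle and 56.2, 98.3 and 141 CPM after DEX. In vDG they were 77.6, 103 and 179.5 CPM against 66.9, 113 and 179. Of 117 DEX libraries, 2 lay above the highest vehicle library and 63 above the vehicle median. The log2 fold change ran from -0.14 in dDG to 0.08 in vDG, with edgeR adjusted p from 0.756 to 0.998 and an unadjusted p under 0.05 in 0 of 8 regions. The 95% confidence intervals spanned 0.740-fold to 1.31-fold at their widest, so a rise of the size seen in Mt2 lay outside them, and a small change in either direction did not. In CER the interval reached 1.307-fold and held the Mt1 rise there of 1.302-fold. In each of the other regions the Mt1 rise lay above the Mt3 interval. Mt3 was also the least precisely counted, with a counting error of 9.56% to 13.0% of a library's value against 2.61% to 3.73% for Mt1.

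**Figure D2:**
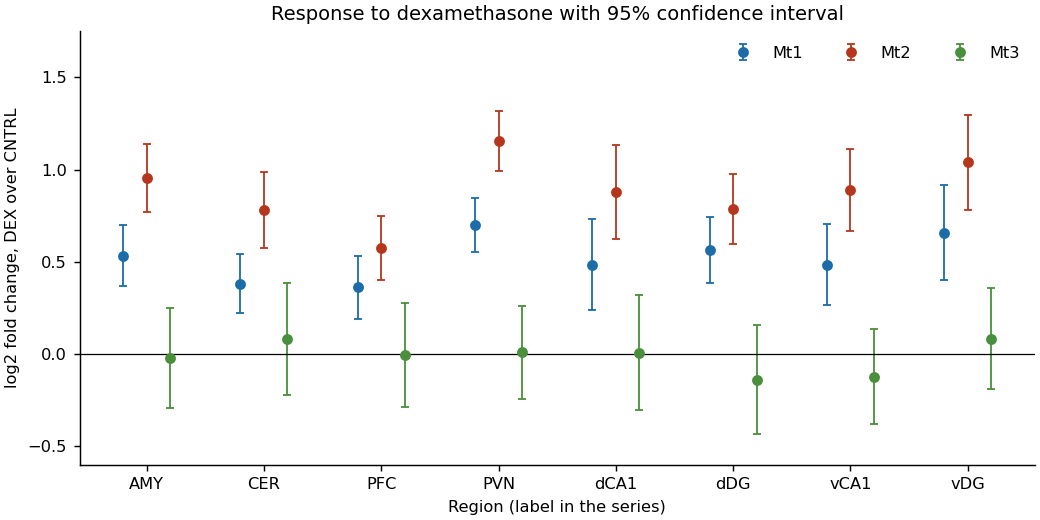
Log2 fold change of DEX over CNTRL with its 95% confidence interval from the edgeR fit of each region (13 to 15 libraries per arm), for Mt1, Mt2 and Mt3. The intervals of Mt1 and Mt2 lie above 0 in all 8 regions, with Mt2 the higher in each, and those of Mt3 include 0 in all 8.

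The rise held within technical batches. Libraries were made on 4 plates and punched on 5 dates, and 32 combinations of a region with a plate held at least 2 libraries of each arm. Mt1 was higher after DEX in 32 of 32 of these and Mt2 in 32 of 32, while Mt3 was higher in 17 of 32. By punching date the counts were 32, 32 and 19 of 32. Without the Gabra6 libraries, Mt1 and Mt2 still passed in 4 of the 4 regions that held them, and so they did with the dentate level in the model in the 4 hippocampal regions.

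Between regions, a difference of response passed the test for 1 member in 1 pair of regions, and not in every fit. A region-by-treatment interaction, fitted in edgeR over all libraries with the mouse as a block, gave an adjusted p of 0.120 for Mt2 (unadjusted 0.00238), and of 1.00 for both Mt1 and Mt3 (unadjusted 0.172 and 0.932). In that fit 1.27% of 11053 genes passed. Among 28 pairs of regions, Mt2 differed in 1, where the response in PVN exceeded that in PFC by 0.56 ± 0.13 (SE) on the log2 scale (edgeR adjusted p 0.0431). Over all genes 0.124% of such tests passed. The call was lost in 3 of 4 alternative fits: without the mouse as a block, with upper-quartile scaling, and with a filter of 10 counts in every library. For Mt1 and Mt3 the number was 0 of 28.

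Mt2 gained on Mt1. The ratio of Mt2 to Mt1 counts within a library cancels the library's scaling, and its log2 value was compared between the arms by two-sided permutation tests (100000 permutations, 24 tests over 3 ratios and 8 regions). In vehicle libraries the geometric mean ratio lay between 0.449 in AMY and 0.517 in vCA1, and after DEX between 0.582 in PFC and 0.686 in vCA1. It rose in 8 of 8 regions, with adjusted p of at most 0.000255. The log2 rise was largest in PVN (0.465), from -1.06 ± 0.159 (SD, n = 14) to -0.60 ± 0.109 (SD, n = 15), and smallest in PFC (0.227) and dDG (0.229). In AMY, PVN, dCA1 and vCA1 every DEX library had a higher ratio than every vehicle library. The DEX libraries above the highest vehicle ratio numbered 11 of 15 in CER, 11 of 15 in vDG, 4 of 15 in dDG and 3 of 14 in PFC. In 6 regions the raw p was the smallest the permutations can give (1e-05).

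Against Mt3, Mt2 rose in 8 of 8 regions and Mt1 in 7 of 8. The log2 ratio of Mt2 to Mt3 rose by 0.621 in PFC to 1.14 in PVN (largest adjusted p 0.00032). That of Mt1 to Mt3 rose by 0.394 in PFC to 0.695 in dDG where it passed, and by 0.255 in CER, where it did not (permutation p 0.126, adjusted 0.126). With the replicate number as a block that region passed too, giving 8 of 8.

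**Figure D3:**
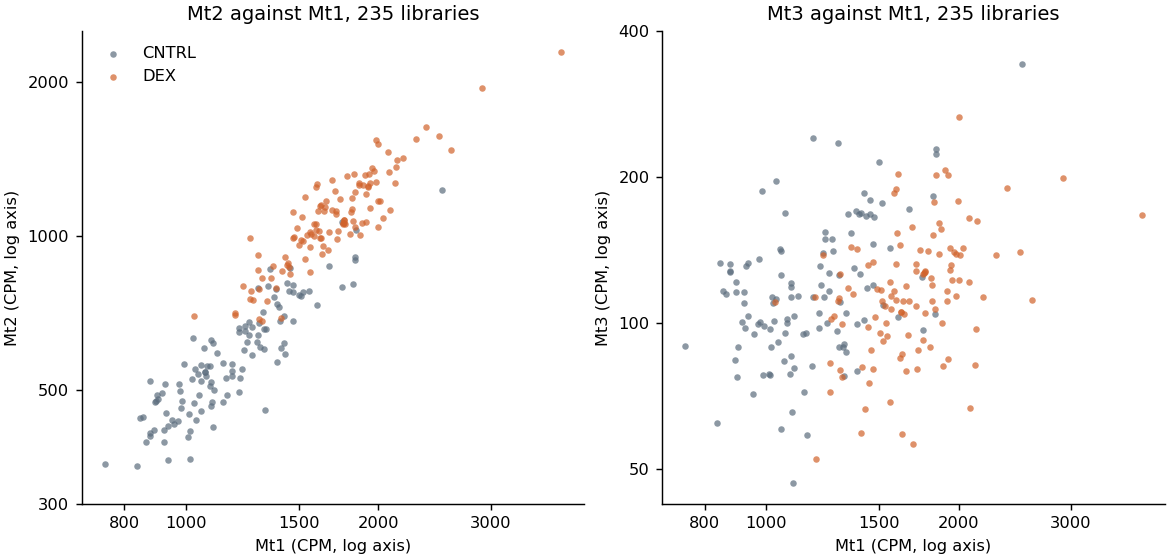
Mt2 (left) and Mt3 (right) against Mt1 in each of 235 libraries, in CPM on log axes, with CNTRL in grey and DEX in orange. Mt2 follows Mt1 in both arms. DEX libraries tend to sit above CNTRL libraries of equal Mt1, and the arms overlap. Mt3 spans much the same range in both arms.

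Between libraries of 1 group, Mt1 and Mt2 moved together closely. Correlations were computed on log2 CPM for 3 pairs of genes in 16 groups (48 relations, each with 100000 permutations and Benjamini-Hochberg adjustment over the 48). For Mt1 and Mt2, Pearson's r ran from 0.631 (CER, DEX) to 0.970 (vCA1, vehicle) with a median of 0.871, and 16 of 16 groups passed (largest adjusted p 0.0248). Spearman's rho had a median of 0.841 and passed in 14 of 16. Without the 2 libraries farthest from the median of Mt1, r ran from 0.452 to 0.960 and 13 of 16 groups passed. The 3 groups that then missed the threshold were PVN vehicle (r 0.452), PFC DEX (0.468) and vDG DEX (0.640), so the calls there rest on those libraries, and r stayed positive in all 16 groups. With values centred within plate the median r was 0.889, and after removing RIN and depth it was 0.904.

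Mt3 followed the other members loosely. Its correlation with Mt1 had a median r of 0.373 and a median rho of 0.301, and passed in 3 of 16 groups by Pearson and 0 by Spearman. With Mt2 the medians were 0.471 and 0.386, and 5 groups passed by Pearson and 3 by Spearman. Without the 2 farthest libraries these counts fell to 1 and 2 by Pearson. They were 6 and 6 by Pearson after removing RIN and depth, and 4 and 7 centred within punching date. Centred within plate, the median r was 0.389 with Mt1 and 0.508 with Mt2. None of 24 differences of r between the arms passed a permutation test (smallest p 0.105, for Mt1 and Mt2 in dDG, adjusted 0.888), and 0 had an unadjusted p under 0.05.

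The level of 10 astrocyte markers moved with Mt1 and Mt2 between libraries. Averaged over the 16 groups by Fisher's z, its r was 0.827 with Mt1, 0.795 with Mt2 and 0.370 with Mt3, each positive in 16 of 16 groups. The level of 8 neuron markers gave -0.167, -0.249 and -0.072, and that of 6 microglia markers 0.609, 0.588 and 0.292. For 5 endothelial markers the values were 0.380, 0.388 and 0.384, for 2 mural markers 0.434, 0.380 and 0.234, and for 6 oligodendrocyte markers 0.306, 0.260 and 0.155. Lists of choroid plexus, meninges and blood genes, with 1 to 3 genes each, gave -0.039 to 0.146. When the astrocyte level was removed from both genes, the median r of Mt1 and Mt2 was 0.657, positive in 16 of 16 groups, and 9 passed. By Spearman the median was 0.593, the lowest -0.110, and 5 passed. For Mt1 and Mt3 the median was then 0.015 and 1 group passed, and for Mt2 and Mt3 it was 0.248 and 1 group passed. This adjustment was chosen after the correlations had been seen.

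**Figure D4:**
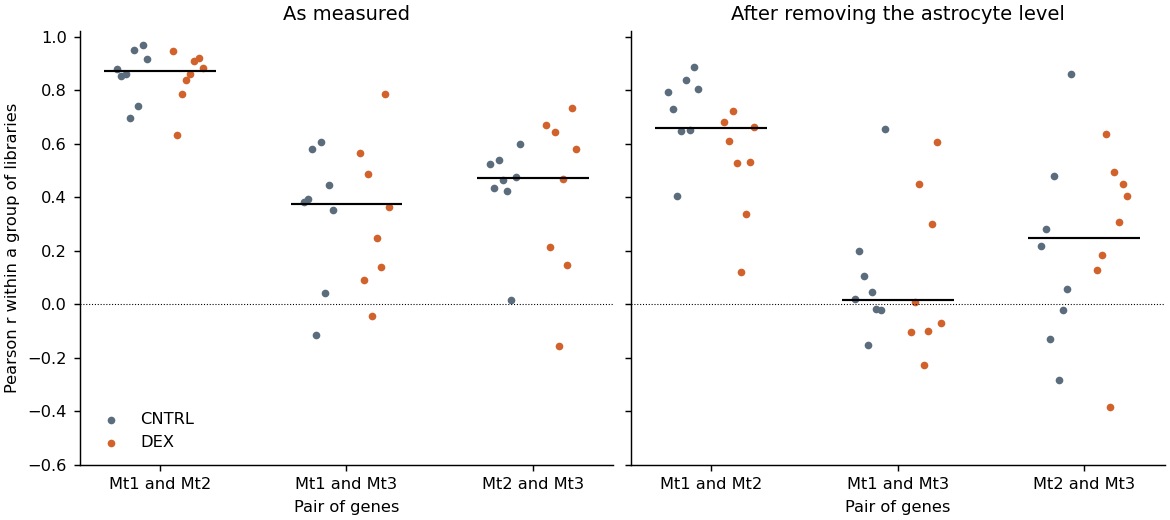
Pearson's r between members within each group of 13 to 15 libraries, as measured (left) and after removing the level of 10 astrocyte markers (right), with CNTRL in grey, DEX in orange and black lines at the median of 16 groups. Mt1 and Mt2 keep a median r of 0.657 after the adjustment, from 0.871 before, and the medians of the pairs with Mt3 fall to 0.015 and 0.248.

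Among 7924 genes tested in all regions, Mt1 and Mt2 were each other's closest gene, with a mean r of 0.878 over the 16 groups. The next 5 genes for Mt1 were Glul (glutamine synthetase, 0.857), Apoe (apolipoprotein E, 0.830), Gpr37l1 (0.782), Aldoc (an astrocyte glycolytic enzyme, 0.772) and Serpine2 (a protease inhibitor, 0.766). For Mt2 they were Apoe (0.748), Paqr8 (a membrane progestin receptor, 0.738), Glul (0.733), Tsc22d3 (the glucocorticoid-induced leucine zipper, 0.731) and Gjb6 (connexin 30, 0.721). For Mt3 they were Rplp1 (a ribosomal protein, 0.763), Cst3 (cystatin C, 0.745), Cox4i1 (a subunit of cytochrome c oxidase, 0.708), Gstm5 (a glutathione transferase, 0.703) and 1500009C09Rik (0.647). Mt2 ranked 277 and Mt1 ranked 594 by likeness to Mt3. The median r over all genes was near 0 for each member (-0.039 for Mt1, -0.036 for Mt2 and -0.030 for Mt3). These values describe libraries that share depth and punch, and carry no test.

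Part of the variation between libraries was shared by the libraries of a mouse. After removing group means, the share of variance between mice was 0.122 for Mt1, 0.218 for Mt2 and 0.021 for Mt3, against a median of 0.021 over 7924 genes. Mt2 stood at the 99.6th percentile of genes and Mt1 at the 97.2nd. All regions of a mouse had the same punching date, so this share holds date as well as mouse. No share was computed with date removed. A mouse's mean deviation from its group means, over its regions, ran in vehicle mice from -0.296 to 0.264 for Mt1 and from -0.413 to 0.352 for Mt2 on the log2 scale. In DEX mice the ranges were -0.097 to 0.096 and -0.090 to 0.108. The lowest vehicle mouse was below its group mean in 7 of 8 regions for both genes, and the highest was above it in 8 of 8 regions for Mt1 and 7 of 8 for Mt2.

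In their mean over regions, vehicle mice differed from each other more than DEX mice did in Mt1 and Mt2. The SD over 15 mice was 0.166 in vehicle and 0.063 after DEX for Mt1, and 0.213 and 0.068 for Mt2, ratios of 2.61 and 3.15. Permutation tests of the ratio, two-sided over 30 mice and 3 genes, gave adjusted p of 0.00102 for Mt1 and 0.00042 for Mt2. For Mt3 the SDs were 0.167 and 0.140 and the adjusted p was 0.758. The median ratio over 7924 genes was 1.04. The smaller spread after DEX was not particular to Mt1 and Mt2. The glucocorticoid-induced genes Tsc22d3, Fkbp5, Sgk1 and Per1 had SDs over mice of 0.399, 0.2905, 0.5855 and 0.242 in vehicle. After DEX their SDs were 0.059, 0.091, 0.126 and 0.141. Within single regions the picture was less even: the coefficient of variation between libraries was larger after DEX in 5 of 8 regions for Mt1 (median 17.7% in vehicle and 16.3% after DEX) and in 0 of 8 for Mt2 (21.6% and 15.5%). Centred within punching date, the ratios for Mt1 and Mt2 were 3.07 and 3.95, and without the 2 farthest mice of each arm 2.45 and 2.84. The astrocyte level showed a ratio of 2.86 by the same measure, and with that level removed the ratios for Mt1 and Mt2 were 2.44 and 3.04 (permutation p 0.00071 and 0.0002). This comparison was chosen after the values had been seen.

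**Figure D5:**
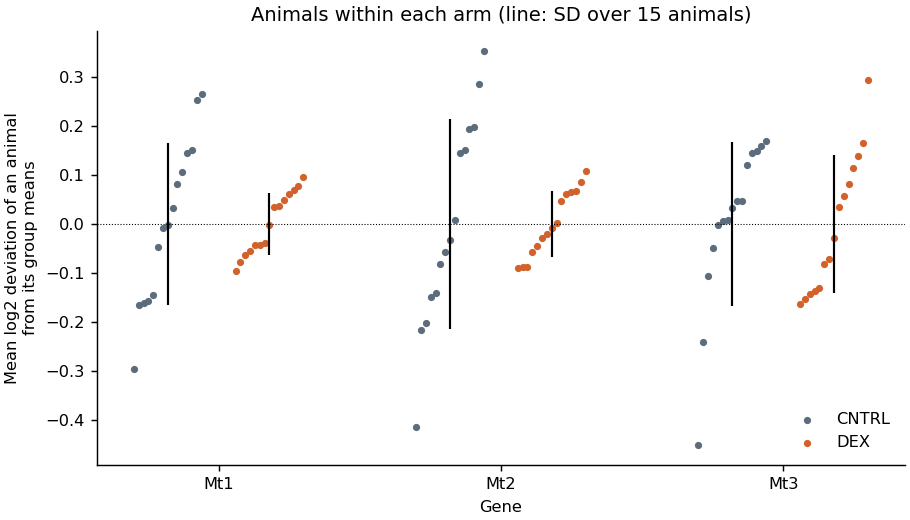
Mean log2 deviation of each of 30 mice from its group means, over its 6 to 8 regions, for Mt1, Mt2 and Mt3, with CNTRL in grey and DEX in orange; lines span 1 SD on each side of 0 over 15 mice. Vehicle mice spread 2.61 times as widely as DEX mice in Mt1 and 3.15 times in Mt2, and 1.19 times in Mt3.

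Across mice, Mt1 and Mt2 deviated together in both arms. Pearson's r was 0.936 over 15 vehicle mice (rho 0.929, permutation p 1e-05 for each, adjusted 6e-05) and 0.812 over 15 DEX mice (rho 0.829, permutation p 0.00061 and 0.00029, adjusted 0.00183 and 0.00087). Without the 2 mice farthest from the median of Mt1 these r values were 0.889 and 0.874, and centred within punching date 0.938 and 0.686. The 4 relations of Mt1 or Mt2 with Mt3 across mice did not pass (smallest permutation p 0.326, adjusted 0.565).

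Mt2 was set against 4 other glucocorticoid-induced genes across mice. The 4 were Tsc22d3, Fkbp5 (a chaperone that dampens the glucocorticoid receptor), Sgk1 (a kinase) and Per1 (a clock gene). They were chosen after the nearest genes were known, Tsc22d3 being one of these, so their values are a description without a test. Over 15 vehicle mice Pearson's r of Mt2 was 0.828 with Tsc22d3, 0.735 with Fkbp5, 0.616 with Sgk1 and 0.173 with Per1. Without the 2 farthest mice these were 0.721, 0.706, 0.724 and 0.405, and centred within punching date 0.849, 0.813, 0.808 and 0.180. Over 15 DEX mice the r of Mt2 was 0.292, 0.185, -0.303 and -0.237 in the same order. For Mt1 in vehicle mice it was 0.670, 0.554, 0.406 and 0.037, and for Mt3 it lay between -0.191 and 0.115. In DEX mice it was 0.175, 0.448, -0.073 and -0.146 for Mt1. For Mt3 in DEX mice it was 0.255, -0.039, -0.195 and 0.635, and the last of these, with Per1, was 0.642 without the 2 farthest mice and 0.655 centred within punching date. The SD over mice of each of the 4 genes was smaller in DEX than in vehicle mice. So were those of Mt1 and Mt2, which left less spread to correlate in DEX mice. The difference of r between the arms was not tested.

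Of the other genes of metal handling, 5 of 183 tests over the 8 regions passed (2.73%), against 5.17% over all genes. The list of 30, holding the further metallothionein Mt4 (tested in 0 of the 8 regions), zinc exporters (Slc30 family), zinc importers (Slc39 family), the regulator Mtf1, copper transporters and copper chaperones, had 20 to 26 members tested per region. Of these 0 or 1 rose and 0 or 1 fell in each region, while the share of all genes called in either direction was 4.68% in dCA1, 5.45% in vCA1, 3.7% in dDG, 3.93% in vDG, 5.62% in AMY, 5.63% in PVN, 6.14% in PFC and 6.18% in CER. The median log2 fold change of the list lay between -0.10 in AMY and 0.05 in CER. The riser was Slc39a14, a zinc and iron importer, tested in 5 regions and called in CER, PVN and dDG, with log2 fold changes from 0.54 to 0.82. Slc30a10, a manganese exporter, fell in AMY and Atox1, a copper chaperone, fell in vCA1. Mtf1 and Slc30a1, a zinc exporter that MTF1 also regulates, passed in 0 of 8 regions, with log2 fold changes from -0.21 to 0.23 and from -0.19 to 0.10.

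Among redox genes, 7 of 136 tests passed (5.15%), a share near that over all genes. Of 21 listed, 17 were tested per region, and at most 1 rose and 2 fell in a region, the most calls being 3 in dDG. Prdx6, a peroxiredoxin, and Slc7a11, the cystine importer, fell in PFC and dDG. Prdx1 fell in CER, Gsr (glutathione reductase) fell in vCA1 and Srxn1 (sulfiredoxin) rose in dDG. No gene of either list was called in one direction in 4 or more regions.

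Of the astrocyte markers, 10 of 80 tests passed (12.5%, against 5.17% over all genes), 9 of them lower. Of 10, Sox9 fell in all 8 regions (log2 fold change -1.20 to -0.67). In dCA1 Aldh1l1 rose and Aqp4 fell, and the other calls numbered 0. The summed level of the 10 had medians of 6236 to 8412 CPM in vehicle groups and 5969 to 8168 CPM in DEX groups, with the DEX median below the vehicle median in each region. Among other cell types, the microglial genes Cx3cr1 and P2ry12 and the endothelial genes Flt1, Kdr and Slco1a4 fell in all 8 regions, and the 8 neuron markers gave no call. The part of these shifts in the Mt1 and Mt2 responses was not tested. A fit with the mean log2 level of the 10 astrocyte markers as a covariate cannot isolate it. Sox9, 1 of the 10, itself fell after DEX, so the covariate held a part of the response. In that fit Mt1 and Mt2 passed in 8 of 8 regions each, with larger log2 fold changes. Those of Mt1 then ran from 0.49 in CER to 0.82 in vDG, in place of 0.36 in PFC to 0.70 in PVN, and those of Mt2 from 0.81 in PFC to 1.22 in PVN. The largest move in ratio was that of Mt1 in PFC, from 0.36 to 0.55.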

How the data were processed

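The authors deposited raw counts per gene for 235 libraries, made with featureCounts 1.6.4 on mm10 per the submitters' processing notes, which also name STAR 2.6.0a, cutadapt, UMI-tools 0.5.4 and FastQC 0.11.4. The annotation, the strand setting and the use of the identifiers in counting are not given in the sources used here. The authors also deposited variance-stabilised values on a log2 scale per region (DESeq2 1.30.1, R 4.0.5), used here as an alternative input with limma.

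Groups came from the titles. In each region, genes passing edgeR's filterByExpr were scaled by TMM factors and tested with edgeR 4.0.16 quasi-likelihood fits, Benjamini-Hochberg adjusted over all genes tested, with a threshold of 0.05. SEs are the log2 fold change over the square root of F. CPM use TMM factors over all libraries, and log2 CPM a prior count of 2. Ratios of counts had 0.5 added. The fits were tested on simulated data. Alternatives were DESeq2 1.42.0, other scaling, filters, covariates, thinned counts and subsets of libraries. Other software was R 4.3.3, limma 3.58.1 and Python 3.11.15 with matplotlib 3.10.9, pandas 2.3.3, scipy 1.17.1 and numpy 2.4.6.

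Library totals set the precision, and counting errors cover counting only. No 2 libraries of a group had counts closer than 1.34 in chi-square per degree of freedom, so none was counted as a repeat of another. A replicate number pairs a vehicle with a DEX mouse: in the labels the 2 libraries shared a plate in 115 of 115 pairs and the 2 mice a punching date in 14 of 15 numbers. Same-numbered libraries deviated together weakly, with a mean correlation of 0.043 to 0.223 by region.

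The members, lists and tests were chosen with earlier results of these data known. Named genes are the 3 members, genes of the metal and redox lists called in one direction in at least 4 regions (there were none), the 5 genes most like each member, and list genes beside a result. Genes set against mice, and list genes named singly, were chosen after their values were seen.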

Additional observations from a re-analysis of the deposited data

Results flagged for a closer look

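The rise of Mt2 after dexamethasone was larger in PVN than in PFC by 0.5557 on the log2 scale (edgeR adjusted p 0.0431, SE 0.134). It stands here because this contrast of 2 regions passed, the 1 of 28 pairs to do so for Mt2, while the test over all 8 regions did not (adjusted p 0.120). Mt2 was above the vehicle median in 15 of 15 PVN and 14 of 14 PFC libraries after DEX. RIN averaged 6.01 ± 0.958 (SD, n = 15) in PVN and 7.81 ± 0.452 (SD, n = 14) in PFC DEX libraries, and with RIN as a covariate 1 pair again passed. Without the mouse as a block, with upper-quartile scaling or with 10 counts in every library, 0 of 28 passed.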

How the results depend on the processing

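Over 15 alternative fits and subsets, giving 112 values per gene, Mt1 was called and positive in 112 (log2 fold change 0.31 to 0.82) and Mt2 in 112 (0.52 to 1.22), while Mt3 was called in 0 (-0.17 to 0.22). Not all of these values are separate checks. A subset that left out no library of a region repeated the main fit, as in PFC with RIN of at least 5. In dCA1 the authors' libraries and the subset without the highest Mt1 library gave the same fit. With the replicate block, Mt1 rose in 8 regions, Mt2 in 8 and Mt3 in 0, and the ratio of Mt2 to Mt1 changed in 8, Mt2 to Mt3 in 8 and Mt1 to Mt3 in 8. The block changed 1 call of these, that of Mt1 to Mt3 in CER. The sign of the uncalled Mt3 value turned in 14 fits: in AMY with RIN of at least 5 (0.054) and the astrocyte covariate (0.10); in PFC with date and plate (0.0043), RIN (0.00084), thinned counts (0.0485), the astrocyte covariate (0.22), DESeq2 (0.0019) and without Gabra6 libraries (0.0237); in PVN with upper-quartile scaling (-0.0108), 10 counts in every library (-0.0012) and thinned counts (-0.021); in dCA1 with DESeq2 (-0.0038) and the dentate covariate (-0.0652); and in vCA1 with the astrocyte covariate (0.0102). The pair of regions differing in the Mt2 response was lost (0 of 28) without the mouse block, with upper-quartile scaling and with 10 counts in every library, and the cause was not tested. Groups with a Mt1 and Mt3 correlation numbered 3, against 6 after removing RIN and depth, 1 without the 2 farthest libraries and 1 after removing the astrocyte level. For Mt2 and Mt3 the number was 5, against 2 and 1 under the last 2 settings, and for Mt1 and Mt2 it was 16, against 9 after removing the astrocyte level. The vehicle over DEX spread of mice for Mt3, 1.19, turned to 0.789 without the 2 farthest mice of each arm (permutation p 0.218). Alternatives without Gabra6 libraries, without the highest Mt1 library, with the astrocyte level removed from correlations, and all those of the spread of mice were chosen after seeing the data. Depth limits Mt3 most, at 18 to 288 counts per library.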
